A study of Mus musculus with 8 samples.

Results

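The genes described here are 33 Toll-like receptors, their co-receptors, adaptors, kinases and inhibitors and the NOD receptors, named from their known roles and found by symbol among the 30743 rows of the expression table. RNA came from the gastrocnemius, a calf muscle, of 4 DTG and 4 MckrtTA mice aged 4 months. DTG mice carry 1256[3Emut]Mck-rtTA together with TRE-myrAkt1, so that the muscle creatine kinase promoter drives rtTA, a doxycycline-dependent activator, which in turn switches on a membrane-anchored, active form of Akt1. MckrtTA mice are littermates that carry the Mck-rtTA transgene without TRE-myrAkt1. All 8 mice drank doxycycline at 0.5 mg/ml for 2 weeks, were starved overnight before collection and have the strain label Myo L8. The promoter directs the transgene to skeletal muscle, while the libraries hold poly(A) RNA of whole muscle, with its vessels, connective tissue and immune cells. Values by mouse are given in the order 253, 282, 283 and 306 for DTG and 255, 280, 281 and 307 for MckrtTA.

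Toll-like receptors are membrane proteins that bind molecules of microbes or of damaged tissue. Those at the cell surface bind mainly lipids and proteins, and those in endosomes bind nucleic acids. Most of them signal through the adaptor Myd88, IRAK kinases and the ubiquitin ligase Traf6 to the TAK1 kinase complex and NF-kB, and some through Ticam1 to interferon regulatory factors. In tissues they are best known from macrophages and other immune cells, although muscle fibres express some of them as well.

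The unit, called signal below, is the estimated number of reads of a gene after each library was scaled to an upper quartile of 1000. The depth was 46.0 to 54.0 M reads (M, mega) in DTG and 45.6 to 58.6 M reads in MckrtTA mice, and 1 read was worth 1.25 to 1.68 signal in DTG and 2.25 to 2.97 in MckrtTA libraries. Akt1 itself had a signal of 37986 to 69301 in DTG and 4047 to 5054 in MckrtTA mice. Markers of the myofiber summed to 0.306 times the MckrtTA level in DTG mice. Of 10 macrophage markers all 10 were called higher by the rule given below, where 14.6% of all genes tested were. The summed signal of the 10 was 66761, 191141, 223732 and 154238 in DTG mice against 5839, 6704, 6522 and 5043 in MckrtTA mice. By the means it was 26.4 times higher in DTG mice. The smallest adjusted p in that list were those of Fcgr1 and Cd68, with log2 fold changes of 6.27 and 5.67. Fcgr1 had only 8.99 to 25.5 in MckrtTA mice, so it could be tested only because it was high in DTG mice. DTG mouse 253 had the lowest macrophage sum of its group and the highest myofiber sum. In whole muscle, more cells of a type and more RNA per cell cannot be told apart.

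Of the 33 genes, 32 had a signal of 25 or more in at least 3 libraries and were tested with limma. Calls required that the adjusted p was below 0.005 and that the groups differed at least 2-fold. Of the 32 genes, 18 were called higher in DTG mice, where 14.6% of all 15073 tested genes were, and 2 were called lower, where 16.0% were. All 4 DTG values lay above all 4 MckrtTA values in 22 of the 32 (22.2% of all genes tested) and below them in 7 (40.4% of all genes tested). The median log2 fold change of the 32 was 1.49, against -0.26 over all genes tested. Of the 18, Cd180, Ly96, Tlr1, Tlr8 and Tlr9 reached the minimum only through the DTG libraries, being below it in 2 or more MckrtTA mice, so that they could only be tested because they were high there. Of the 27 genes that reached it in 3 or more MckrtTA libraries as well, 13 were higher, where 11.3% of all such genes were, and 2 were lower. At an adjusted p under 0.05 with no fold minimum, 22 of the 32 were higher, where 25.6% of all genes were, and 8 were lower, where 44.1% were. Other scalings moved the median over all genes by 0.25 (trimmed mean of log ratios), 0.28 (median of ratios) and 0.92 (equal totals). The calls over all genes, 2207 higher and 2405 lower here, were then 2648 and 1401, 2722 and 1281, and 4640 and 301.

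The calls were not spread evenly over the roles. Of the 10 Toll-like receptors tested 9 were called higher, and all 5 co-receptors and trafficking proteins and 3 of 4 adaptors were called higher too. Over all genes tested 14.6% were called higher and 16.0% lower. Tlr1, Tlr8, Tlr9, Ly96 and Cd180 could be tested only because they were high in DTG mice. No adaptor, kinase, ligase, inhibitor or NOD gene entered in that way, so the counts by role are not on equal terms. Of the 8 kinases, ubiquitin ligases and TAK1 complex members 1 was called higher and 1 lower. None of the 2 inhibitors and 3 NOD receptors was called by limma, with 2 of these 5 at an adjusted p under 0.005 and a smaller fold, and 4 of them at an unadjusted p under 0.05.

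**Figure D1:**
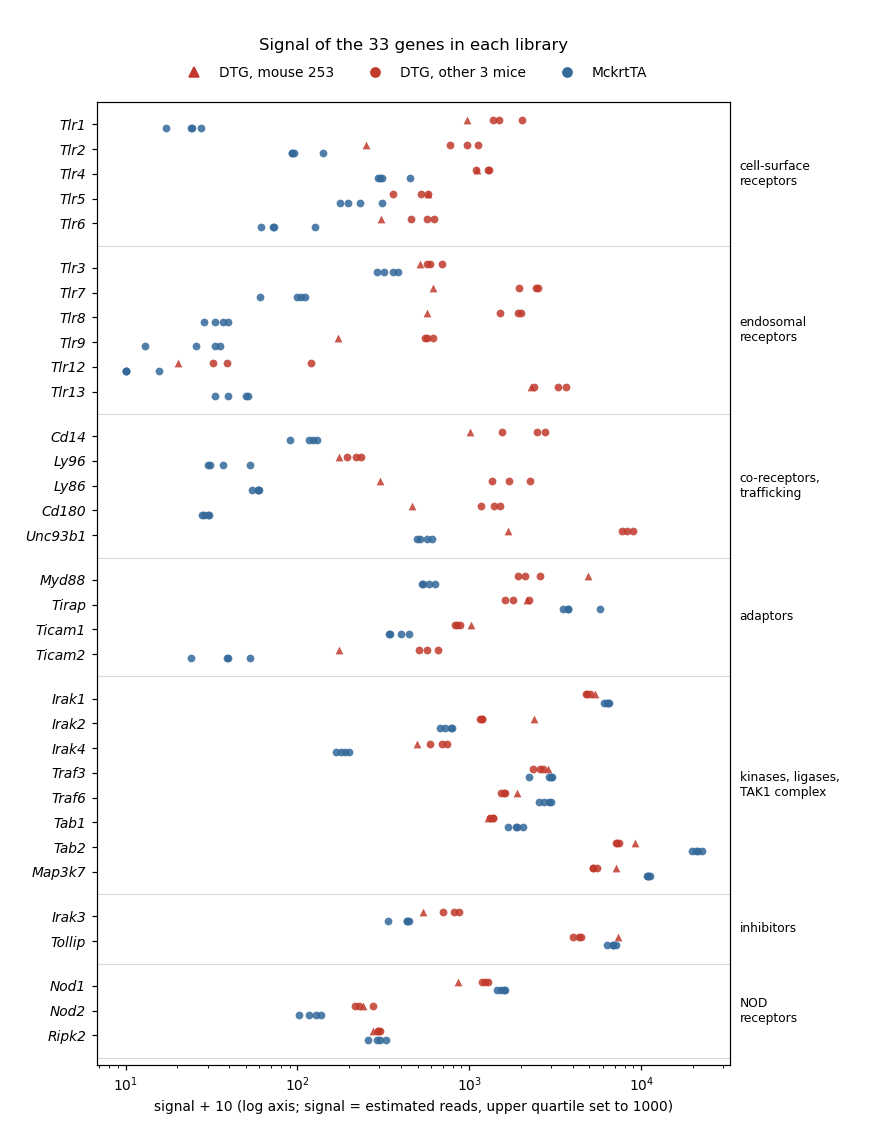
Signal plus 10 of each of the 33 genes in each library, on a log axis and grouped by role, with DTG mice drawn above MckrtTA mice and mouse 253 as a triangle. The DTG and MckrtTA points are far apart for most receptors and co-receptors, and close together or in the opposite order for most kinases, Tollip, Nod1 and Ripk2.

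RefSeq promoter windows of build GRCm38.p6 were found for 25 of the 33 genes. A window is the 250 bases before a RefSeq start, and 4 are shown to place the sequence of called genes beside their values. They belong to the called genes whose values are given by mouse and which have a window free of annotated exons, and where a gene has several such windows the one farthest downstream is shown. Tlr5 and Tlr9, also called higher, have exon-free windows that are not shown because their values are given as ranges. Tlr6 lies on the minus strand with its window at chr5:64959167-64959416, and that of Tlr8, also on the minus strand, is chrX:167264330-167264579. Cd180 is on the plus strand with chr13:102693308-102693557, and Tab2 is on the minus strand with chr10:7953066-7953315. The windows of Tlr6 and Tab2 lie in an intron of a longer transcript of the same gene, and those of Tlr8 and Cd180 lie outside genes. Each is written in the direction of its gene, and capitals mark matches on either strand to the PU.1 core GAGGAA, to the interferon-stimulated response element core (2 runs of GAAA with 2 free bases between them) or to the NF-kB consensus.
Tlr6: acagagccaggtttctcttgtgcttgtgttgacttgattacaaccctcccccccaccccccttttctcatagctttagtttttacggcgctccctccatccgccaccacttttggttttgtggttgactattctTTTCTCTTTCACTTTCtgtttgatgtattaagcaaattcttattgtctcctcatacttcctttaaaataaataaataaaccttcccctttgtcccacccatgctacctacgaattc
Tlr8: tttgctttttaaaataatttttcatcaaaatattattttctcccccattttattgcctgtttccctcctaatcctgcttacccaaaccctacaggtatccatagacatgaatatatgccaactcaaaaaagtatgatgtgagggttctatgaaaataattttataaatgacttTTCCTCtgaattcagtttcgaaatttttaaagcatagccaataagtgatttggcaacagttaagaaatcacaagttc
Cd180: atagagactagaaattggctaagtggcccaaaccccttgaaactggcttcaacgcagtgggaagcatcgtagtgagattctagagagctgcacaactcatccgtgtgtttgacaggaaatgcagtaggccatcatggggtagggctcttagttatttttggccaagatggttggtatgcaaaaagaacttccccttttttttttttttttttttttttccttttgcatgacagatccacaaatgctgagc
Tab2: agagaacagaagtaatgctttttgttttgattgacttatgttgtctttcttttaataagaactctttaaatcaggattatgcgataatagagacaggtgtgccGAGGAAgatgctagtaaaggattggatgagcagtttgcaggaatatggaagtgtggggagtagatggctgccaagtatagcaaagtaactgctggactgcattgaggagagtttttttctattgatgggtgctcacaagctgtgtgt
Tlr6 holds 2 matches to the interferon-stimulated core that overlap by 4 bases, read on the opposite strand at 116 to 101 bases before the start. Tlr8 holds 1 match to the PU.1 core on the opposite strand at 77 to 72 bases before the start, and Tab2, which was lower in DTG mice, holds 1 at 147 to 142 bases. The printed Cd180 window holds none of the 3 motifs, and neither do the other windows of Tlr6 and Cd180 or the window of Tlr5, while that of Tlr9 holds a PU.1 core. Over all 32851 windows of the same length, 23.3% hold the PU.1 core, 2.98% the interferon-stimulated core and 7.25% the NF-kB consensus. By gene, the PU.1 core was in 8 of the 25 genes (25.9% of all 27025 genes with a window), the interferon-stimulated core in 2 (3.46%) and the NF-kB consensus in 5 (8.23%). The letters describe the windows, and binding was not measured.

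All 5 cell-surface receptors rose in DTG mice, with log2 fold changes of 1.17 to 5.95. Tlr1 (chr5:64924683-64933560, mm10), which binds bacterial lipopeptides together with Tlr2, had a signal of 961, 1480.2, 2010.4 and 1367 in DTG mice, against 14.4, 7.28, 17.6 and 14.0 in MckrtTA mice. The MckrtTA values stand for only 3.24 to 6.19 estimated reads, so the size of the log2 fold change of 5.95 ± 0.24 (SE, adjusted p = 5.20e-07) depends on the amount added before the logarithm. It was 6.68 with 1 added and 4.53 with 50. Tlr6, which lies beside Tlr1 on chromosome 5 and also pairs with Tlr2, had 296, 555, 612 and 449 in DTG mice, against 62.2, 51.1, 117 and 63.1 in MckrtTA mice, a log2 fold change of 2.56 ± 0.29 (adjusted p = 5.33e-05). Tlr1 and Tlr6 are close in sequence and the estimated reads of both are not whole numbers, so the split of reads between them is uncertain.

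Tlr4, the receptor for lipopolysaccharide, had 1096, 1293, 1282 and 1078 in DTG mice, against 302, 285, 441 and 294 in MckrtTA mice. Its log2 fold change was 1.83 ± 0.16 (adjusted p = 1.29e-05), and the DTG mice were close to each other. Tlr2, the common partner of Tlr1 and Tlr6, had 241, 958, 1106 and 765 in DTG mice, against 129.9, 83.1, 83.1 and 86.0 in MckrtTA mice. Mouse 253 was far below the other DTG mice for Tlr2, and still above every MckrtTA mouse. The log2 fold change was 2.70 ± 0.43 (adjusted p = 0.000392). Tlr5, the flagellin receptor, had the smallest change of the group, with 349.6 to 568 in DTG and 166 to 299 in MckrtTA mice and a log2 fold change of 1.17 ± 0.22 (adjusted p = 0.00115).

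Of the 6 endosomal receptors 4 rose, 1 was tested and not called and 1 was too low to test. Tlr13 (chrX:106143275-106160493), which binds bacterial ribosomal RNA in mice, had 2283, 3253, 3650 and 2372 in DTG mice, against 23.2, 29.2, 40.1 and 41.5 in MckrtTA mice. With 6.05 ± 0.21 (adjusted p = 2.81e-07) its log2 fold change was the highest of the 32 genes when 10 was added before the logarithm. Tlr8, a neighbour of Tlr7 on chromosome X that senses RNA fragments in humans, had 557, 1992, 1904 and 1499 in DTG mice, against 18.6, 27.0, 22.9 and 29.7 in MckrtTA mice. Tlr7, a receptor for RNA, had 601, 2423, 2501 and 1945 in DTG mice, against 95.1, 89.9, 100.3 and 50.4 in MckrtTA mice. The log2 fold change was 5.30 ± 0.37 for Tlr8 (adjusted p = 4.72e-06). That of Tlr7 was 4.17 ± 0.43 (adjusted p = 3.48e-05), and mouse 253 was the lowest DTG mouse for both.

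Tlr9, which binds unmethylated CpG DNA, had 162 to 602 in DTG and 2.97 to 25.5 in MckrtTA mice, a log2 fold change of 4.09 ± 0.47 (adjusted p = 5.69e-05). In MckrtTA mouse 307 its signal was 1 read, and the log2 fold change was 4.86 with 1 added before the logarithm and 2.83 with 50. Tlr3, the receptor for RNA duplexes, signals through Ticam1 and not through Myd88. Its signal was 507 to 687 in DTG and 279 to 376 in MckrtTA mice without overlap, but its log2 fold change of 0.81 ± 0.14 (adjusted p = 0.000789) stayed below the fold of 2. It passed that fold under each of the 3 other scalings, with 1.06 to 1.74. Tlr12, a receptor for parasite profilin in mice, had 10.1, 28.9, 22.4 and 110.3 in DTG mice, against 0, 0, 5.73 and 0 in MckrtTA mice, where 2 reads were found in mouse 281 and none in the others.

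The order of the receptors differed between the groups when signal was taken per kilobase of exon. In DTG mice Tlr13 led with 711.7 ± 165 signal per kb, followed by Tlr7 with 471 ± 222, Tlr1 with 466 ± 139 and Tlr8 with 434 ± 191 (SD, n = 4). The spreads of these 4 overlap. Tlr2 had 255 ± 125 and Tlr4 217 ± 21.3, and Tlr9, Tlr6, Tlr3 and Tlr5 lay within 122 to 134 signal per kb, close to each other. In MckrtTA mice Tlr3 led with 73.1 ± 9.50 signal per kb, followed by Tlr4 with 60.5 ± 13.6 and Tlr5 with 53.2 ± 14.3, neighbours whose spreads overlap. Tlr13 was at rank 7 of 11 there with 8.26 ± 2.17 signal per kb, and Tlr1 at rank 10 with 4.26 ± 1.39. Thus Tlr3, first in MckrtTA mice, was at rank 9 in DTG mice, while Tlr12 was last in both groups.

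**Figure D2:**
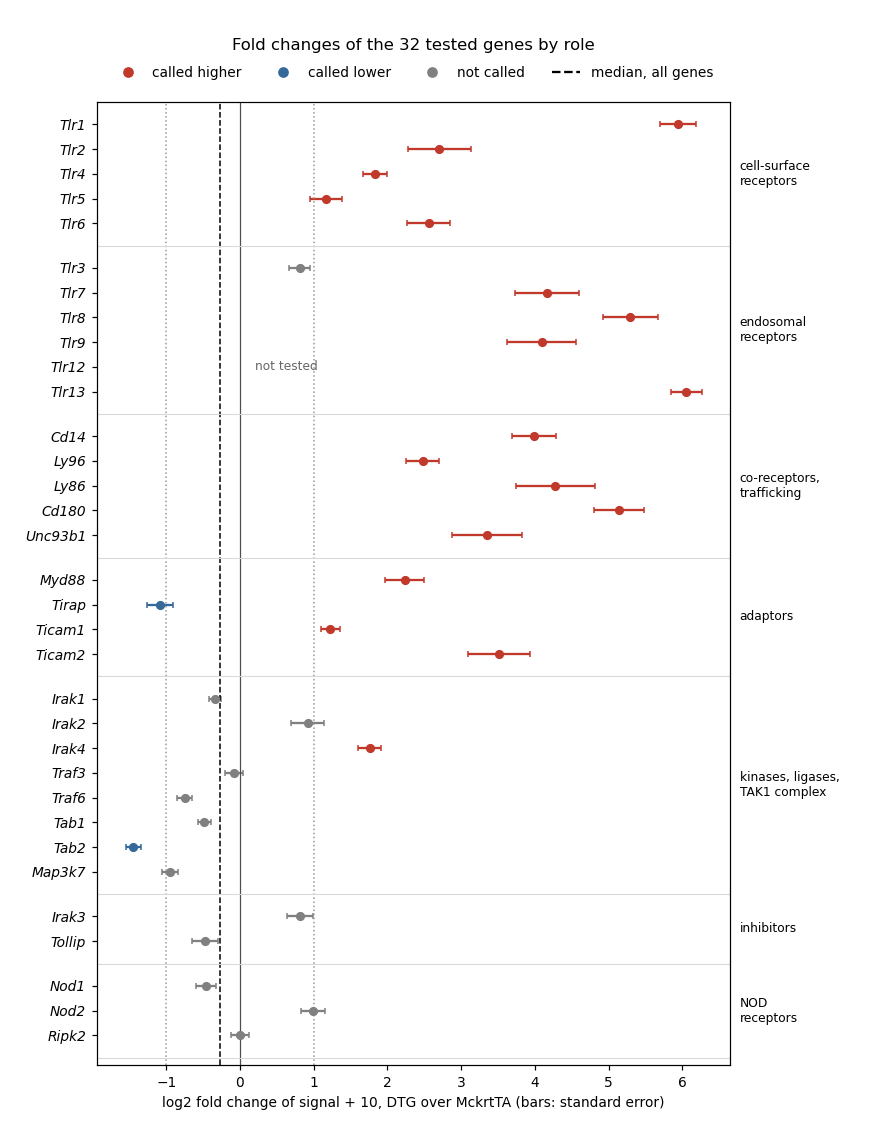
Log2 fold change, DTG over MckrtTA, of signal plus 10 for the 32 tested genes by role, with bars for the standard error, dotted lines at a fold of 2 and a dashed line at the median of all genes tested (-0.26). Receptors and co-receptors lie to the right, with Tlr13 at 6.05 and Tlr1 at 5.95, and most kinases lie near or left of 0, with Tab2 at -1.45.

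All 5 co-receptors and trafficking proteins rose. Cd180 (chr13:102693558-102706631), a Toll-like receptor homologue that acts in complex with Ly86, had 455, 1377, 1498 and 1163 in DTG mice, against 18.6, 17.98, 20.1 and 20.8 in MckrtTA mice. Its log2 fold change was 5.14 ± 0.34 (adjusted p = 3.57e-06). Exons of Cd180 overlap those of Mast4 on the opposite strand, and counting by strand was not stated for the read estimates. Cd14, which hands lipopolysaccharide to Tlr4, had 1004, 2733, 2458 and 1546 in DTG mice, against 107, 80.9, 120.3 and 113 in MckrtTA mice, a log2 fold change of 3.99 ± 0.30 (adjusted p = 6.25e-06). Ly96, also called MD-2, the lipid-binding partner of Tlr4, had 163, 209, 224 and 184 in DTG mice, against 20.9, 42.7, 20.1 and 26.7 in MckrtTA mice. For Ly96 the log2 fold change was 2.48 ± 0.23 (adjusted p = 1.74e-05), and no DTG mouse was near a MckrtTA mouse.

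Ly86, the partner of Cd180, had 291 to 2246 in DTG and 44.5 to 49.4 in MckrtTA mice. Its log2 fold change was 4.28 ± 0.54 (adjusted p = 0.000100), and 4.91 without mouse 253, which was the lowest DTG mouse. Unc93b1 carries the endosomal receptors from the endoplasmic reticulum to their compartment. Its signal was 1662 to 8888 in DTG and 484 to 599 in MckrtTA mice, with a log2 fold change of 3.35 ± 0.48 (adjusted p = 0.000209), and mouse 253 was again the lowest.

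Of the 4 adaptors 3 rose and 1 fell. Myd88, the adaptor of most Toll-like receptors, had 4907, 2561, 2094 and 1899.8 in DTG mice, against 519.6, 571, 524 and 623 in MckrtTA mice. Mouse 253 was the highest DTG mouse here, although it was the lowest for most receptors. The log2 fold change of Myd88 was 2.23 ± 0.26 (adjusted p = 7.13e-05). Ticam1, or TRIF, the adaptor of Tlr3 and of internalised Tlr4, had 1012, 816, 842 and 872 in DTG mice, against 438, 337, 390 and 332 in MckrtTA mice. The log2 fold change of Ticam1 was 1.22 ± 0.13 (adjusted p = 3.98e-05), and the groups did not overlap.

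Ticam2, or TRAM, which links Tlr4 to Ticam1, had 163, 499, 648 and 560.2 in DTG mice, against 13.9, 42.7, 28.7 and 29.7 in MckrtTA mice, a log2 fold change of 3.52 ± 0.42 (adjusted p = 8.07e-05). Its exons overlap those of Tmed7 on the same strand, so its value is uncertain. Tirap, or MAL (chr9:35184391-35200291), which brings Myd88 to Tlr2 and Tlr4, had 2149.9, 2214, 1780.05 and 1594 in DTG mice, against 3732, 3764, 5747 and 3474 in MckrtTA mice. The DTG mice were all below the MckrtTA mice, with a log2 fold change of -1.09 ± 0.18 (adjusted p = 0.000440). This call was lost without MckrtTA mouse 281 (-0.93), under each of the 3 other scalings (-0.84 to -0.14), and on lane 1 (-1.24) or lane 8 (-0.94) alone. Exons of Gm39318 overlap it on the opposite strand.

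Of the kinases, ubiquitin ligases and TAK1 complex members, Irak4 rose and Tab2 fell. Irak4, the kinase that binds Myd88 first, had 483, 680.3, 728 and 579 in DTG mice, against 169, 179.8, 189 and 157 in MckrtTA mice, a log2 fold change of 1.76 ± 0.16 (adjusted p = 1.44e-05). Exons of Twf1 overlap Irak4 on the opposite strand. Tab2 (chr10:7905648-7956123), the subunit of the TAK1 complex that binds ubiquitin chains, had 9235, 7254, 7413 and 7114 in DTG mice, against 21296, 19719, 22443 and 20768 in MckrtTA mice. Its log2 fold change was -1.45 ± 0.10 (adjusted p = 5.50e-06), and under equal totals it was -0.50 and not called. Map3k7, the TAK1 kinase itself, had 7100.5, 5507, 5209 and 5231 in DTG mice, against 10865, 10992, 10961 and 11274 in MckrtTA mice. With -0.95 ± 0.11 (adjusted p = 6.41e-05) it was just short of a fold of 2, which it passed without mouse 253 (-1.05), and under equal totals its log2 fold change was 0.0015.

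The other 5 of this group were not called. Irak2, a kinase relative that sustains signalling, had 1146 to 2366 in DTG and 663 to 785 in MckrtTA mice (log2 fold change 0.92 ± 0.23, adjusted p = 0.00518), and it was called higher under each of the 3 other scalings. Irak1, Traf6 and Tab1 were below the MckrtTA mice in all 4 DTG mice, with log2 fold changes of -0.34, -0.75 and -0.48 that became positive under equal totals. Traf3, a ubiquitin ligase of the Ticam1 branch, overlapped between the groups, with 2325 to 2861 in DTG and 2211 to 3026 in MckrtTA mice. Exons of Tlr3, Irak2 and Irak3 overlap those of Gm45542, Gm43963 and Gm47009 on the opposite strand, and those of Irak1 overlap Mir5132 and Mir718 on the same strand.

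The inhibitors and the NOD receptors held no call. Irak3, or IRAK-M, a kinase relative that blocks signalling in macrophages, had 529, 806, 861 and 688 in DTG mice, against 434, 422, 424 and 326 in MckrtTA mice. Its log2 fold change of 0.81 ± 0.17 (adjusted p = 0.00236) was below the fold of 2, which it passed under each of the 3 other scalings (1.06 to 1.74). Tollip, which binds IRAK kinases and dampens signalling, had 7327, 4354, 3999 and 4456 in DTG mice, against 6868, 6813, 6310 and 7162 in MckrtTA mice. Mouse 253 alone lay above every MckrtTA mouse for Tollip, and the log2 fold change was -0.47 ± 0.18 (adjusted p = 0.0363), or 0.47 under equal totals.

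Nod2, a cytosolic sensor of bacterial peptidoglycan, had 231, 207, 219 and 264 in DTG mice, against 128, 92.1, 106 and 119 in MckrtTA mice. At 0.99 ± 0.16 (adjusted p = 0.000423) its log2 fold change was at the edge of the fold of 2, and Nod2 was called higher without DTG mouse 282 (1.04) or 283 (1.01), without MckrtTA mouse 255 (1.06) or 307 (1.02), and under each of the 3 other scalings (1.23 to 1.88). Nod1, a related sensor, had 844, 1271, 1175 and 1222 in DTG mice, against 1594, 1579.8, 1510.03 and 1448 in MckrtTA mice, a log2 fold change of -0.46 ± 0.14 (adjusted p = 0.0136) that was 0.49 under equal totals. Ripk2, the kinase that acts below both, had 266, 286, 285 and 291 in DTG mice, against 316, 279, 292 and 246 in MckrtTA mice. The groups overlapped for Ripk2, with a log2 fold change of -0.0020 ± 0.13 (adjusted p = 0.990).

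Within a library, the ratio of one gene to another does not depend on the scaling. Of 14 pairs 12 were tested with an exact two-sided permutation test over the 8 libraries, adjusted over the 12, and for 10 of them the groups did not overlap (p = 0.0286, the smallest that 4 against 4 allows, adjusted p = 0.0343). The pairs were chosen with earlier results known, and the share over all possible pairs was not computed, so this count is no result. Of single genes tested, 22.2% lay fully above and 40.4% fully below in DTG mice. Cd14 over Tlr4 was 0.916 to 2.11 in DTG and 0.273 to 0.384 in MckrtTA mice, a log2 difference of 2.25. Ly96 over Tlr4 was 0.149 to 0.175 in DTG and 0.0455 to 0.150 in MckrtTA mice, which overlapped in this exact test (p = 0.0571, adjusted p = 0.0623). Tlr2 over Tlr4 overlapped as well, with 0.220 to 0.862 in DTG and 0.188 to 0.431 in MckrtTA mice (exact p = 0.114).

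Among the adaptors, Tirap over Myd88 was 0.438 to 0.865 in DTG and 5.58 to 10.96 in MckrtTA mice, so that Tirap exceeded Myd88 in every MckrtTA mouse and in no DTG mouse. Ticam1 over Myd88 was 0.206 to 0.459 in DTG and 0.533 to 0.844 in MckrtTA mice, a log2 difference of -1.01. Tollip over Myd88 was 1.49 to 2.35 in DTG and 11.5 to 13.2 in MckrtTA mice. These 3 pairs share Myd88 and are not independent of each other. In each of them the weight of Myd88 was greater in DTG mice.

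Tlr7 over Tlr3 was 1.19 to 4.16 in DTG and 0.181 to 0.324 in MckrtTA mice, a log2 difference of 3.50. Ly86 over Cd180, partners in one receptor complex, was 0.641 to 1.93 in DTG and 2.14 to 2.75 in MckrtTA mice. Irak3 over Irak4 was 1.09 to 1.19 in DTG and 2.08 to 2.56 in MckrtTA mice, the pair with the tightest DTG values. Irak2 over Irak1 (log2 difference 1.27) and Nod2 over Nod1 (1.51) were higher in DTG mice, and Tab2 over Tab1 (-0.96) was lower. Tlr1 over Tlr6, 2.67 to 3.28 in DTG and 0.142 to 0.231 in MckrtTA mice, was not tested because Tlr1 was below a signal of 10 in 1 library. Tlr9 over Tlr3 was not tested for the same reason, with 0.319 to 1.09 in DTG and 0.0106 to 0.0741 in MckrtTA mice.

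**Figure D3:**
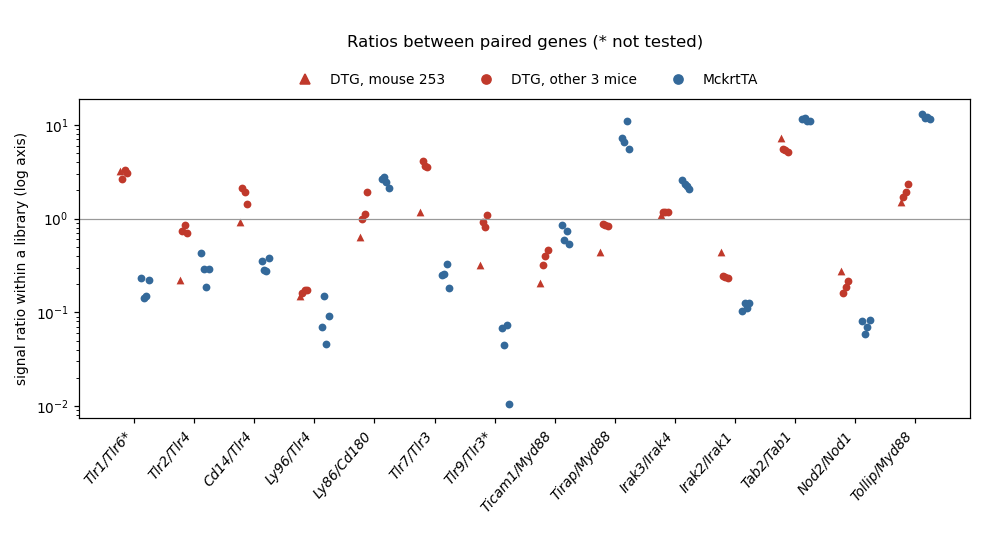
Ratio of the signals of paired genes within each library on a log axis, DTG left of MckrtTA in each pair, with mouse 253 as a triangle and an asterisk at the 2 pairs that were not tested. The groups are apart in all pairs except Tlr2 over Tlr4 and Ly96 over Tlr4, and Tirap over Myd88 lies below 1 in DTG and above 5 in MckrtTA mice.

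Since the macrophage markers rose in the same mice, each of the 32 genes was also divided by their summed signal and the ratios were compared with the exact permutation test, adjusted over 32. Since the sum itself was 26.4 times higher in DTG mice, a gene had to rise by about as much to keep its ratio. Relative to the sum, 93.5% of all genes tested were below in all 4 DTG mice and 0.750% were above. Of the 18 genes called higher 4 were above, 9 were below and 5 overlapped, and nothing is read from the 9. The 18 had been chosen as higher, so their counts are not comparable with the shares over all genes. The 4 were Tlr1, Tlr13, Tlr8 and Cd180. Of these 4, Tlr1, Tlr8 and Cd180 passed the minimum signal for testing only through the DTG libraries. Tlr13 was 15.4 to 34.2 per 1000 of macrophage signal in DTG and 3.97 to 8.24 in MckrtTA mice, a log2 difference of 1.84 (exact p = 0.0286, adjusted p = 0.0339). Tlr8 and Cd180 had log2 differences of 1.19 and 1.13. Tlr1 was 7.74 to 14.4 per 1000 in DTG and 1.09 to 2.78 in MckrtTA mice. The minimum signal of 10 used for the pairs was not applied to these ratios, and Tlr1 and Tlr9 each had 1 MckrtTA library below it, so no p is given for them.

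The 5 that overlapped were Tlr7, Tlr9, Cd14, Ly86 and Ticam2. Cd14 was 10.03 to 15.03 per 1000 in DTG and 12.1 to 22.4 in MckrtTA mice, where the exact p was 0.0857 (adjusted p = 0.0980). Tlr4, with 5.73 to 16.4 per 1000 in DTG and 42.6 to 67.7 in MckrtTA mice, and Myd88, with 9.36 to 73.5 in DTG and 80.4 to 124 in MckrtTA mice, were among the 9 that were below. Lyz2 made up 33.5 to 43.7% of that sum in DTG and 32.9 to 37.0% in MckrtTA mice. The part of macrophages in the changes was not tested.

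**Figure D4:**
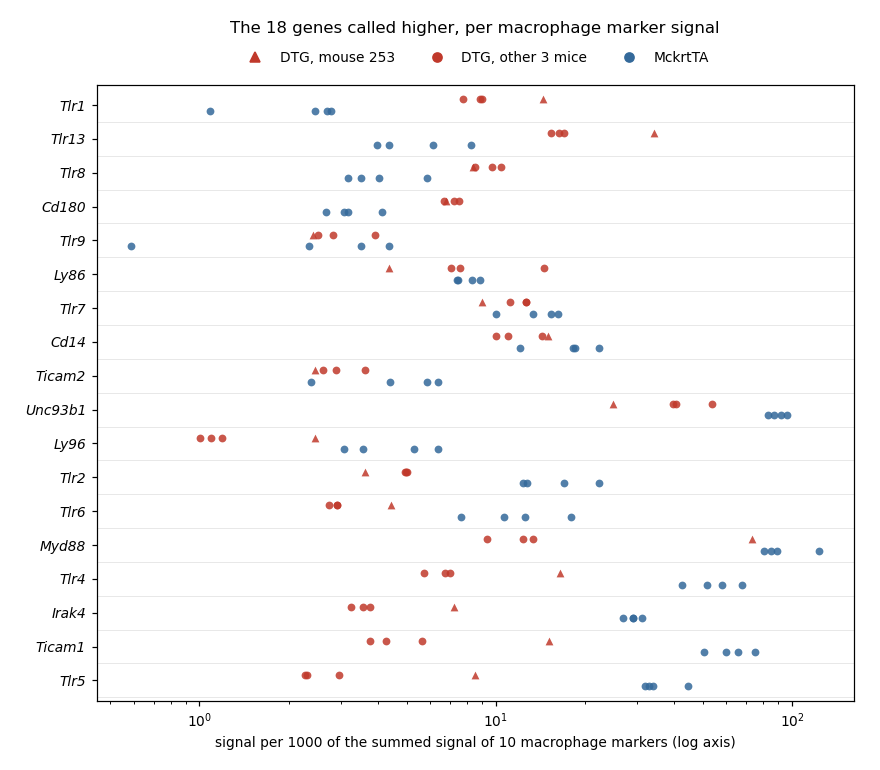
Signal of the 18 genes called higher per 1000 of the summed signal of 10 macrophage markers, on a log axis, in order of the log2 difference and with DTG mice drawn above MckrtTA mice. The top 4 genes, Tlr1, Tlr13, Tlr8 and Cd180, have all DTG points to the right, and from Unc93b1 down all DTG points lie to the left.

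Markers of other cells were examined in the same way, where 14.6% of all genes tested were called higher and 16.0% lower. Neutrophil markers summed to 1519 to 2182 in DTG and 144 to 222 in MckrtTA mice, with 3 of 4 tested markers higher. Of the 3, Retnlg and Mmp8 reached the minimum signal only through the DTG libraries, with 6.96 or less in every MckrtTA mouse. Most of the DTG sum was Csf3r, the receptor for granulocyte colony-stimulating factor, with 1135 to 1440 in DTG and 30.4 to 62.5 in MckrtTA mice. Cxcr2, a chemokine receptor of mature neutrophils, overlapped, with 122 to 485 in DTG and 109 to 170.3 in MckrtTA mice (log2 fold change 0.48, adjusted p = 0.277 by limma). Mpo, Elane and Camp, which mark neutrophil precursors, were too low to test, and Ly6g was not analysed here. Of the B cell markers Cd79b was tested and higher, and Ms4a1, Cd79a and Pax5 were too low to test. T and NK cell markers summed to 37.0 to 223 in DTG and 5.93 to 37.1 in MckrtTA mice, with 1 of 4 tested markers higher. Of the plasmacytoid dendritic cell markers 1 of 2 tested was higher, and of the conventional dendritic cell markers 2 of 4. The markers called higher in the B cell, T and NK cell and dendritic cell lists were Cd79b, Cd3g, Pacsin1, Flt3 and Clec9a. Each of them passed the minimum signal for testing only through the DTG libraries, so the counts of these lists are no result. Fibroblast markers were higher in 3 of 4, with sums of 28030.3 to 175041 in DTG and 15664 to 22213 in MckrtTA mice. Of the endothelial markers 1 of 5 was lower, which is near the share over all genes, so nothing is read from it. Of the satellite cell markers 1 of 3, Vcam1, was higher, and Pax7 and Myf5 were not called. The part of these cell types in the receptor values was not tested.

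Mouse 253 stood apart from the other 3 DTG mice, in these genes and beyond them. Its total signal was 90.9 M, against 60.6 to 66.4 M in the other 3. Its fibroblast sum of 28030 was the lowest of the DTG mice. Of the 18 genes called higher, mouse 253 was below the other DTG mice in 14, above them in 3 and among them in 1. The share over all genes was not computed, so this count is not a trait of these genes. The gap was widest for Ly86, where the log2 difference from MckrtTA mice was 2.38 in mouse 253 and 4.91 in the other 3. For Unc93b1 these differences were 1.62 and 3.93, and for Tlr2 1.27 and 3.18. Myd88 and Irak2 ran the other way, with 3.11 and 1.94 for Myd88 and 1.68 and 0.66 for Irak2. Without mouse 253 all 18 genes were still called higher, and over all genes 2761 were called higher, against 2207 with it.

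**Figure D5:**
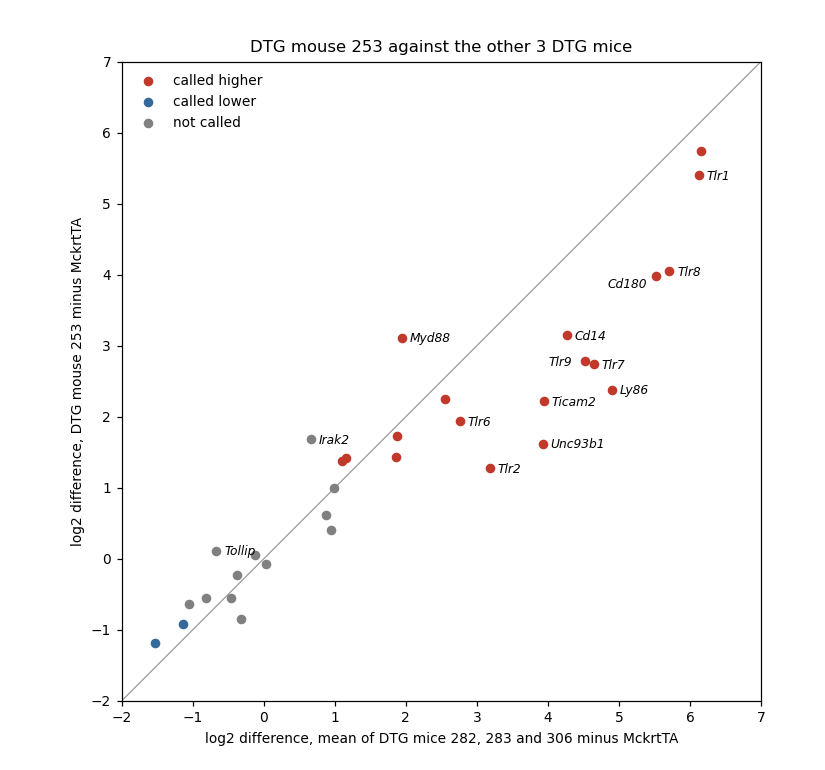
Log2 difference from the mean of MckrtTA mice of signal plus 10, for DTG mouse 253 on the vertical axis and for the mean of the other 3 DTG mice on the horizontal axis, with 1 point for each of the 32 tested genes and names where they differ by more than 0.7. Most genes called higher lie below the diagonal, such as Ly86 at 2.38 against 4.91, and Myd88 and Irak2 lie above it.

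The libraries ran on lanes 1 and 8, with 2 mice of each group on each. The run names begin with a different identifier on each lane, so lane and run cannot be told apart. All 18 genes called higher had a positive difference in both lanes, 1.14 to 6.15 on lane 1 and 0.96 to 6.14 on lane 8, and both genes called lower were negative in both lanes. The groups did not overlap in any of these genes, so the sign in each lane was fixed in advance. With 2 mice a group, 17 of the 18 were called higher on lane 8, where 16.6% of all genes were, and 1, Tlr13, on lane 1, where 0.358% of all genes were. Tirap lost its call on either lane alone, where 0.0265% (lane 1) and 16.9% (lane 8) of all genes were called lower, and Map3k7 gained one on lane 8 (-1.05). The 12 tested pair ratios kept their sign in both lanes. Of the ratios to the macrophage sum 29 of 32 did so, with Tlr7, Tlr9 and Ly86 as the exceptions. For pairs and ratios whose groups did not overlap, the sign in each lane was likewise fixed.

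Of 72 other genes of the pathway, 68 were tested, 36 were higher and 1 was lower, where 14.6% and 16.0% of all genes tested were. Of the 36, 12 reached the minimum signal only through the DTG libraries: S100a8, S100a9, Zbp1, Pik3ap1, Tnip3 and 7 early response genes. Among the 56 that reached it in 3 or more MckrtTA libraries too, 24 were higher, where 11.3% of all such genes were, and 1 was lower. Ligands made by the host rose in 5 of 6 cases, and in 3 of the 4 that reached the minimum in MckrtTA mice too. Tnc, tenascin C, a matrix protein that binds Tlr4, averaged 18635 ± 5724 in DTG and 683 ± 240 in MckrtTA mice (SD, n = 4), a log2 fold change of 4.77 ± 0.33 (SE, adjusted p = 4.08e-06). Vcan, versican, a matrix proteoglycan that binds Tlr2, averaged 4549 ± 1279 in DTG and 572 ± 119 in MckrtTA mice, a log2 fold change of 2.94 ± 0.24 (adjusted p = 9.22e-06).

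Receptor chaperones and lysosomal proteases fold and cleave the receptors. The list of them, which also holds the transporters Slc15a3 and Slc15a4, was higher in 7 of 10 cases. Lgmn, an asparagine endopeptidase that cleaves Tlr9, had a log2 fold change of 3.56 ± 0.15 (adjusted p = 5.36e-07), and Slc15a3, a lysosomal peptide transporter, of 4.64 ± 0.24 (adjusted p = 1.29e-06). Of 12 other receptors and co-receptors tested 7 were higher, or 6 of 11 without Zbp1. Clec7a, or dectin-1, the receptor for fungal glucan, had a log2 fold change of 5.23 ± 0.36 (adjusted p = 4.37e-06), and Tmem173, or STING, the sensor of cyclic dinucleotides, of 3.20 ± 0.23 (adjusted p = 4.88e-06).

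Signal transducers were mixed, as among the kinases above, with 7 of 23 higher and 1 lower. Without Pik3ap1, 6 of 22 were higher. Irf5, a transcription factor below Myd88, averaged 2182 ± 137 in DTG and 271 ± 27.7 in MckrtTA mice, a log2 fold change of 2.97 ± 0.11 (adjusted p = 2.81e-07), and Ikbke, an IKK-related kinase, had 3.36 ± 0.15 (adjusted p = 7.07e-07). Peli2, a ubiquitin ligase of IRAK kinases, fell with -1.24 ± 0.18 (adjusted p = 0.000274). Of 9 further inhibitors tested 3 were higher, or 2 of 8 without Tnip3. Tnip2, which binds the ubiquitin-editing protein Tnfaip3, had a log2 fold change of 1.60 ± 0.20 (adjusted p = 9.90e-05), and Tnip3 had 107 to 149 in DTG and 0 to 6.74 in MckrtTA mice.

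Early response genes, which NF-kB and interferon regulatory factors are known to switch on, hold 8 tested genes. Of these 7 were called higher, but each reached the minimum signal only through the DTG libraries, so their count is no result. The other, Nfkbia, which encodes the NF-kB inhibitor I-kappa-B alpha, had 2051, 1853, 1801 and 1613 in DTG mice, against 1489, 2539.75, 2103 and 3237 in MckrtTA mice. The groups overlapped for Nfkbia, with a log2 fold change of -0.30 ± 0.21 (adjusted p = 0.221). Tnf averaged 77.2 ± 17.6 in DTG and 7.62 ± 1.43 in MckrtTA mice, a log2 fold change of 2.29 ± 0.22 (adjusted p = 2.50e-05). Il1b, which encodes interleukin 1 beta, had 129.7, 193, 60.7 and 170.4 in DTG mice, against 2.32, 0, 2.87 and 0 in MckrtTA mice, that is at most 1 read in a MckrtTA library. Ifnb1, the gene of interferon beta, was listed at 0 in all 8 libraries.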

How the data were processed

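Poly(A) RNA libraries of 8 gastrocnemius muscles (4 DTG, 4 MckrtTA) were made with a stranded kit and sequenced as paired reads on 2 lanes. Group and mouse number come from the labels. The authors mapped reads to the mm10 transcriptome with RSEM, scaled the estimated reads by the upper quartile and deposited them as signal values, with the 75th percentile over 30743 genes at 1000. The submitters' processing notes also name BWA. The value of 1 read was taken from the smallest steps. Since 86.8 to 88.1% of low values came within 0.1 of whole reads, reads were not recovered and count tests were not run. Both groups hold separate mice.

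Signal was log2-transformed after adding 10 and compared with limma 3.58.1 (R 4.3.3, trended variances, no covariate) over the 15073 genes that reached 25 in at least 3 libraries, with Benjamini-Hochberg adjustment. Calls required an adjusted p below 0.005 and at least a 2-fold difference. Fold changes are on the log2(signal + 10) scale, which understates those of low genes. The fit was tested on simulated data. Ratios were compared by exact two-sided permutation tests. Exon lengths and overlaps come from GENCODE M21.

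The genes, lists and rules were chosen with earlier results of these data known. Values by library are given for the 3 members of each role with the smallest adjusted p, for called members that were lower and for Myd88, Tlr4 and Tlr2, and for Tlr12, chosen after its values were seen. Of other pathway genes the 2 with the smallest adjusted p in each role are named, with any called gene that moved against its list, and likewise 2 macrophage and 2 neutrophil markers. Nfkbia, Ifnb1, Cxcr2 and the marker genes without values were named after their values were seen. Alternatives changed the amount added (1 or 50), the minimum signal (above 0 in 1 library, or 100), the scaling (equal totals, trimmed mean of log ratios, median of ratios), the lanes, the thresholds and the moderation, and left out each mouse in turn.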

Additional observations from a re-analysis of the deposited data

Results flagged for a closer look

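Among 64 groups of 4 mice, 1 for each tested gene and group, the gap of the highest or lowest mouse to its neighbour took more of the range of log2(signal + 10) than Dixon's critical value in 11. The nominal rate of about 1 in 20 holds for independent groups, and these genes share the same libraries. The share over all genes tested was not computed, so the count of 11 is no result. Of the 11, 4 were in DTG mice and all 4 of these concern mouse 253. It was lowest for Tlr9 (0.916 of the range) and Unc93b1 (0.918), and highest for Irak2 (0.973) and Tab2 (0.842). The other 7 were in MckrtTA mice. Mouse 307 was lowest for Tlr7 (0.835), Ly86 (0.858), Traf3 (0.852) and Irak3 (0.907). Mouse 281 was highest for Tlr4 (0.874) and Tirap (0.841), and mouse 255 was highest for Tlr2 (0.923).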

How the results depend on the processing

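The 18 genes called higher were all still called under 18 of the 20 alternatives, the exceptions being lane 8 alone (17) and lane 1 alone (1). The 2 called lower became 0 under equal totals and on lane 1 alone, 1 with either other scaling, and 8 at an adjusted p under 0.05 with no fold minimum, where 44.1% of all genes were lower, and leaving out 1 mouse gave 1 (MckrtTA mouse 281) to 3 (DTG mouse 253). The median log2 fold change was 1.35 with 50 added, 2.41 under equal totals, and 1.74 and 1.78 for a trimmed mean of log ratios and for the median of ratios. Under equal totals the log2 fold changes of Irak1 (0.61), Traf3 (0.86), Traf6 (0.19), Tab1 (0.46), Map3k7 (0.0015), Tollip (0.47), Nod1 (0.49) and Ripk2 (0.91) turned positive, as did Traf3 (0.17) and Ripk2 (0.24) for the trimmed mean, Traf3 (0.21) and Ripk2 (0.28) for the median of ratios, and Ripk2 on lane 8 alone (0.13). On leaving out 1 mouse Ripk2 lay between -0.065 and 0.050, and was positive without mouse 253, 255 or 281. Of the other pathway genes, 36 were higher, or 1 on lane 1 alone, and 31 to 38 on leaving out 1 mouse. The 1 that was lower became 2 with 1 added, 0 under the 3 scalings and on lane 1 alone, 3 on lane 8 alone, 17 at an adjusted p under 0.05 (44.1% of all genes), and 1 to 6 on leaving out 1 mouse (6 without mouse 253 and 2 without mouse 306, 255 or 280). The ratios to the macrophage sum kept their direction and their side of the threshold with the median of that list in its place. The causes were not tested. No paired analysis was run, because the labels do not say whether mice of the groups were paired as littermates. Tlr1, Tlr8, Tlr9, Tlr12, Tlr13, Cd180, Ly96 and Ticam2 rest on few reads in MckrtTA mice, so the size of their fold changes is uncertain. The log2 fold change of Tlr13 was 6.40 with 1 added and 5.12 with 50. That of Ly96 was 2.83 with 1 added and 1.66 with 50, and that of Ticam2 was 3.91 and 2.60.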
